A study of Homo sapiens and Mus musculus with 20 samples.

Results

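The genes described here are 10 genes of the NRF2 antioxidant response and of the aldo-keto reductase family, namely AKR1C1, AKR1C2, AKR1C3, AKR1B1, AKR1B10, NQO1, HMOX1, GCLM, TXNRD1 and SRXN1. They were found by symbol among 17554 genes measured by bulk RNA-seq in 12 libraries of IMR90, a single line of fibroblasts from human fetal lung. The 10 genes were chosen by their measured levels and changes in 3 IMR90 comparisons, so their levels and changes there are a description, with no test. All IMR90 groups were wild type and held 2 libraries each. A485, an inhibitor of the acetyltransferase p300, was compared with Control2. MS-275, which inhibits histone deacetylases of class I, was compared with Control3. Pyruvate was compared with Control6, and according to the study's text it was given to senescent cells. The controls were labelled as having no treatment, and the labels gave no dose, duration or passage. Mouse gastrocnemius muscle, also wild type, was profiled after intramuscular MS-275 against Control4 in middle-aged female mice and after NALA, sodium lactate, against Control5 in aged mice, with ages as the study's text describes them and 2 libraries per group. The labels did not say whether 2 libraries of a group came from separate cultures or animals, so every p-value measures only the spread between these libraries, which may be technical.

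NRF2, the transcription factor encoded by NFE2L2, pairs with small MAF proteins on antioxidant response elements near its target genes. KEAP1 and CUL3 mark NRF2 for degradation until oxidants or electrophiles modify KEAP1, and BACH1 competes for the same elements. Its targets conjugate or reduce reactive compounds, make glutathione, reduce thioredoxin and break down haem, and in fibroblasts they form part of the common response to oxidative stress.

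The 3 AKR1C genes are neighbours on chromosome 10 (hg38). AKR1C1 lies at 4963253 to 4983283 on the plus strand, AKR1C2 at 4987775 to 5018031 on the minus strand, and AKR1C3 at 5035354 to 5107686 on the plus strand. They encode NADPH-dependent reductases of ketosteroids, prostaglandins and lipid aldehydes. Along their main (MANE) transcripts AKR1C1 and AKR1C2 were 97.2% identical over 3209 aligned bases. Of the 150-base windows of these transcripts, the length of 1 sequenced read, 7.91% in AKR1C1 and 16.5% in AKR1C2 occurred unchanged in the other gene. AKR1C3 shared no such window with AKR1C1, and 2.12% of its windows with AKR1C2. How reads from shared stretches were counted is not given in the sources used here, so the split between AKR1C1 and AKR1C2 is less certain than their sum.

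The upstream sequences of the AKR1C genes are printed because AKR1C1 and AKR1C2, although nearly identical there, differed in the size of their change under A485. Each is the 250 bases before a RefSeq transcription start (GRCh38.p14), written 5′ to 3′ on the strand of the gene, and capitals mark bases within the aligned stretch that are not those of AKR1C1, with bases past its ends left in lower case. In AKR1C2, 245 of 246 aligned bases (99.6%) were those of AKR1C1, and in AKR1C3 185 of 241 (76.8%). AKR1C3 has a second start, not printed, where 184 of 234 (78.6%) were.
AKR1C1, chr10:4963165-4963414, plus strand: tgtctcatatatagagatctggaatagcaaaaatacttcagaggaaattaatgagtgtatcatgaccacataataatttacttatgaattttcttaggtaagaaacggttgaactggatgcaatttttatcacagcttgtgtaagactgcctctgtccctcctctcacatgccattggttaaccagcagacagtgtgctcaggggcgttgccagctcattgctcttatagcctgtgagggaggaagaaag
AKR1C2, chr10:5003858-5004107, minus strand: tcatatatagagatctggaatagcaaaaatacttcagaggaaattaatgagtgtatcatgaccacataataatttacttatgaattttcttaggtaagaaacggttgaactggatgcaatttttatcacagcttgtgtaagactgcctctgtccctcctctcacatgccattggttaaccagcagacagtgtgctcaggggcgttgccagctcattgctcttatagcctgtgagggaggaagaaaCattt
AKR1C3, chr10:5048531-5048780, plus strand: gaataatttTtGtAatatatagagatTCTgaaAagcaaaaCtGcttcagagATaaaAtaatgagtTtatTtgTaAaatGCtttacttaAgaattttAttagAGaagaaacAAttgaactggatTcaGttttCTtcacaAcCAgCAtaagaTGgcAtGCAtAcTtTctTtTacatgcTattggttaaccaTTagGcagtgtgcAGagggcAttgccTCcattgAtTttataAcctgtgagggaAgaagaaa

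Promoter sequence was matched for 8 of the 10 genes, all but HMOX1 and AKR1B10. The core letters of the antioxidant response element, TGACNNNGC or GCNNNGTCA on the other strand, were searched in the 250 bases before each start. They occurred in 3830 of 35116 promoters of the table (10.9%), and among the 8 matched genes in GCLM and TXNRD1. These 2 genes are shown with the match in capitals, with both starts of TXNRD1. The distance from the match to the start was 34 bases in GCLM, and 99 and 102 bases at the starts of TXNRD1. A match is a description of the letters and not of a bound site. Sequence outside these 250 bases was not searched, so a gene without a match here may hold one elsewhere.
GCLM, chr1:93909431-93909680, minus strand: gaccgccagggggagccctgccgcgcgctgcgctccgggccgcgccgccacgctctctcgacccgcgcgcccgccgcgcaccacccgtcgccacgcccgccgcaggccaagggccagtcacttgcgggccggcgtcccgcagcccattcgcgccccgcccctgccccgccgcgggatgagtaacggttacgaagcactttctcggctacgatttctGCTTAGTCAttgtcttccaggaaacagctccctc
TXNRD1 start 1, chr12:104215529-104215778, plus strand: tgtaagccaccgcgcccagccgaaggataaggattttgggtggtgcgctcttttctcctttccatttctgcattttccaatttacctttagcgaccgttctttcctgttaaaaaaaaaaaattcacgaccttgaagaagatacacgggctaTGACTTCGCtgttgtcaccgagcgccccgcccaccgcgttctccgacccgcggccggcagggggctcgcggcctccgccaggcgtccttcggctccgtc
TXNRD1 start 2, chr12:104286782-104287031, plus strand: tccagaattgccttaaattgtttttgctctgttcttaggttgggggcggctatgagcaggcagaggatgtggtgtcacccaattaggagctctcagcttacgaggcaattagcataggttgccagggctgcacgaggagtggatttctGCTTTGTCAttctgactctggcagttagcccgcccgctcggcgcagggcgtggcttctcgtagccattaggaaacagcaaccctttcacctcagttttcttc

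The other genes lie on several chromosomes (hg38). AKR1B1, aldose reductase, is at 134442356 to 134459284 on chromosome 7, minus strand, and AKR1B10, a related reductase of aliphatic and retinoid aldehydes, at 134527567 to 134541412, plus strand. NQO1, the quinone reductase, is at 69706996 to 69726668 on chromosome 16, minus strand, and 575 of its exon bases overlap a long noncoding RNA on the opposite strand. HMOX1, the inducible haem oxygenase, is at 35380361 to 35394214 on chromosome 22, plus strand. GCLM, the modifier subunit of the enzyme that starts glutathione synthesis, is at 93885199 to 93909456 on chromosome 1, minus strand. TXNRD1, cytosolic thioredoxin reductase, is at 104215779 to 104350307 on chromosome 12, plus strand. SRXN1, which reduces overoxidized peroxiredoxins, is at 646615 to 653200 on chromosome 20, minus strand, and 2292 of its exon bases are shared with another protein-coding annotation on the same strand, so its reads may be divided between the annotations.

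Per library, IMR90 cells gave 24179065 to 46971227 reads over the genes listed, and mitochondrial genes took at most 6.90% of them. All 8 fibroblast markers (COL1A1, COL1A2, COL3A1, VIM, PDGFRB, LUM, DCN and THY1) were measured in each experiment, and of 5 immune markers at most 2 were listed, with a summed level of at most 27.9. At most 2 of 5 epithelial markers, EPCAM and KRT18, were listed, with a summed level of 558 to 1921. Of 4 endothelial markers at most 2 were listed, with a summed level of at most 203. Values below are normalised read counts, that is reads per gene divided by the authors' size factor for the library. Each experiment was normalised separately, so levels were not compared between experiments. A log2 fold change is treated minus control on log2(value + 1). A gene was called when its adjusted p was under 0.05 (limma, Benjamini-Hochberg) and its log2 fold change exceeded 1 in size.

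**Figure D1:**
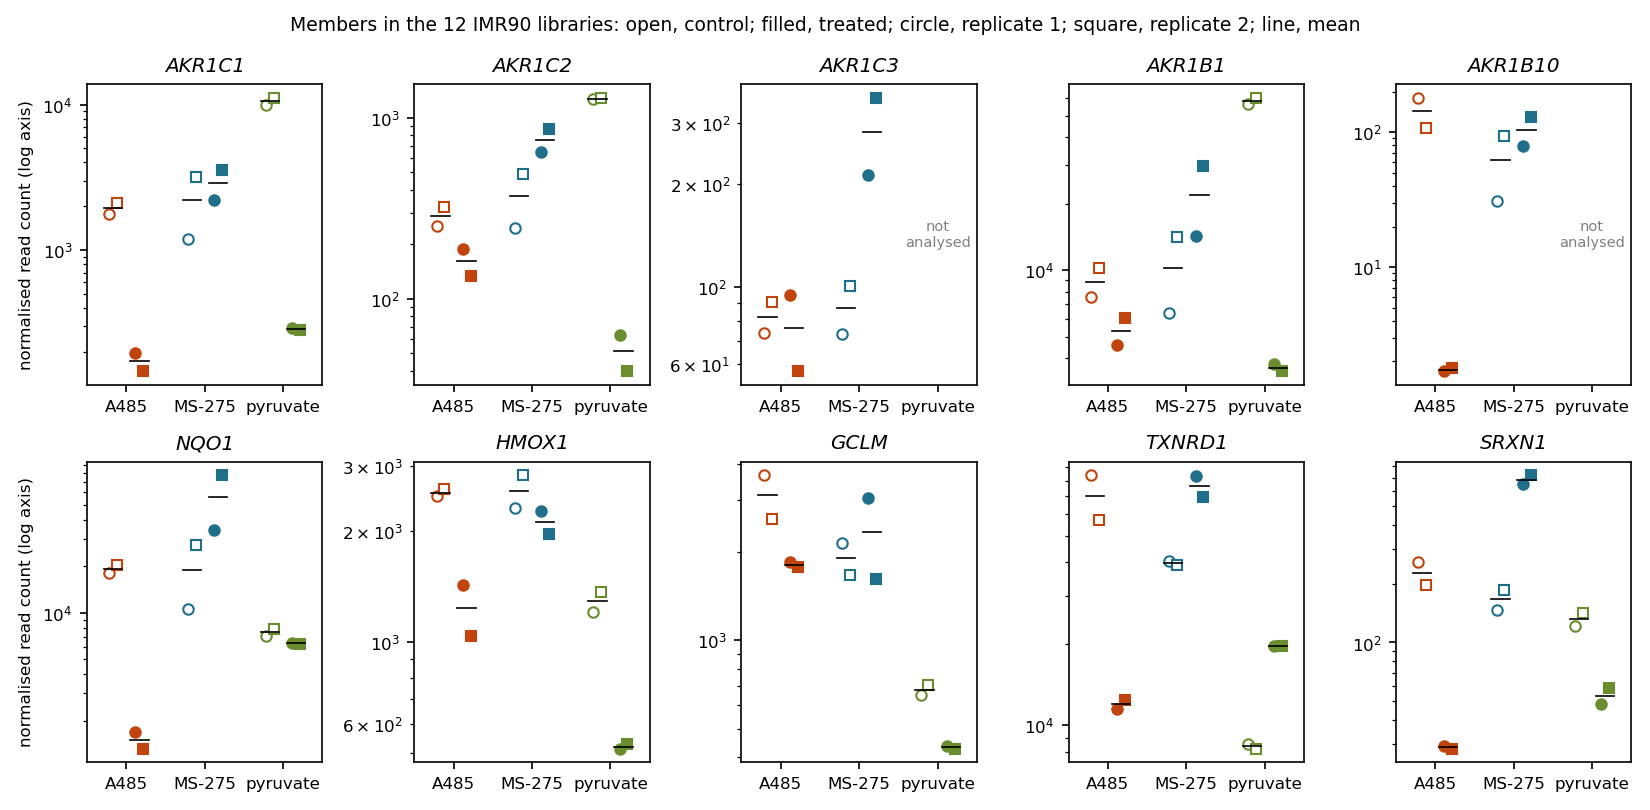
Normalised read count (log axis, separate range in each panel) of the 10 genes in the 12 IMR90 libraries. Open symbols are controls, filled symbols treated libraries, circles replicate 1, squares replicate 2 and lines group means. With A485 both treated libraries lie below both controls in 9 of 10 panels, AKR1C3 being the exception. With pyruvate AKR1C1, AKR1C2 and AKR1B1 lie far below their controls and TXNRD1 above.

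The order of the genes by level was taken within each experiment, per kilobase of the main transcript. Among the Control2 libraries TXNRD1 was highest with a mean of 18247 per kilobase, and NQO1 (7593) and AKR1B1 (6517) overlapped each other below it. HMOX1 (1635), GCLM (639) and AKR1C1 (296) followed without overlap. SRXN1, AKR1C2, AKR1B10 and AKR1C3, with means of 69.3 to 90.2 per kilobase, were lowest, and each overlapped its neighbour in the order. In Control3 the order was the same for the top genes within overlap, with TXNRD1 at 10292, AKR1B1 at 7522 and NQO1 at 7518 per kilobase. Control6 had another order, in which AKR1B1 stood first at 42836 per kilobase, NQO1 second at 2960 and TXNRD1 next at 2168, and no neighbours overlapped. AKR1C1 came after TXNRD1 in Control6, at 1608 per kilobase.

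A ratio of 2 genes within 1 library does not depend on the size factor. For every 100 normalised reads of NQO1, AKR1C1 had 9.94 and 10.3 in the Control2 libraries and 11.3 and 11.7 in the Control3 libraries. In the Control6 libraries it had 141 in each. For AKR1B1 the same ratio was 42.2 and about 50 in Control2, 60.4 and 51.6 in Control3, and 800 and 765 in Control6. The Control6 libraries thus had more AKR1C1 and AKR1B1 for their NQO1 than the other controls. Experiment, cell state and sequencing differ together among these controls and cannot be told apart.

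With A485, all 10 genes had a negative log2 fold change, and 6 of them were called, all lower. Of all genes tested, 10.4% were called and 7.06% were called lower, and since the choice of the 10 genes used this comparison, nothing is read from the difference. The median log2 fold change of the 10 genes was -1.80, beside 0.0088 for all 16084 genes tested. NQO1, AKR1C1, SRXN1 and TXNRD1 were lower by a factor of 5.89 to 12.7 and HMOX1 by a factor of 2.06, and AKR1B10 was left with 2 reads in each treated library. The treated libraries lay below both controls in 9 of the 10 genes, as for 30.7% of all genes.

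Among the reductases of the AKR families, AKR1C1 was 1781 and 2095 in the control libraries and 196 and 146 with A485. Both treated values were lower by about an order of magnitude, with a log2 fold change of -3.50 ± 0.25 (SE, n = 2 per group). AKR1C2 was 254 and 321 in controls and 190 and 134 with A485, for a log2 fold change of -0.83 ± 0.34. Its groups did not overlap, but it did not pass the call rule. AKR1C3, at 73.8 and 90.6 in controls and 95.2 and 57.0 with A485, had overlapping groups and a log2 fold change of -0.15 ± 0.45, which became 0.24 when libraries were scaled to equal totals and 0.22 without the second A485 library. AKR1C1 took 87.5% (95% Wilson interval 86.0 to 88.9) and 86.7% (85.2 to 88.2) of the summed AKR1C1 and AKR1C2 reads in the controls. After A485 it took 50.9% (46.3 to 55.4) and 52.1% (46.6 to 57.5). These intervals cover counting error only.

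AKR1B10 was 179 and 108 in controls and 1.69 and 1.78 with A485. The A485 values were 2 reads in each library, against 167 and 88 reads in the controls. The ratio of control to A485 was 84.05 by summed reads after allowing for the size factors of the libraries, with an exact 95% counting interval of 32.4 to 311, and the fitted log2 fold change was -5.68 ± 0.61. AKR1B1, its neighbour on chromosome 7, was 7561 and 10180 in controls and 4592 and 6076 with A485, for a log2 fold change of -0.73 ± 0.23. The groups of AKR1B1 did not overlap, and it was not called.

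Of the quinone, haem and redox enzymes, NQO1 was 17924 and 20360 in controls and 1690 and 1315 with A485 (log2 fold change -3.68 ± 0.19). Its ratio to AKR1C1 hardly moved, since AKR1C1 had 11.6 and 11.1 per 100 NQO1 after A485. TXNRD1 was 83534 and 57332 in controls and 11541 and 12375 with A485 (-2.53 ± 0.24). SRXN1 was 258 and 198 in controls and 29.5 and 28.5 with A485 (-2.92 ± 0.40). These 3 genes had treated libraries close to each other and far below both controls.

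HMOX1 was 2485 and 2596 in controls and 1425 and 1040 with A485, at -1.06 ± 0.21 on the log2 scale, just past the size limit. With equal library totals it was -0.67 and was not called. GCLM was 3648 and 2596 in controls and 1845 and 1779 with A485 (-0.76 ± 0.21), lower in both libraries and not called. Without either A485 library, AKR1C1 and NQO1 remained called and the count was 2, and without either control library it was 4. With equal totals the all-gene median was 0.40, and under that scaling 9 of the 10 genes were still lower, with AKR1C3 higher. Summed fibroblast markers were 1357445 and 1511442 in the Control2 libraries and 428267 and 502039 with A485, and the part of this in the result was not tested.

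**Figure D2:**
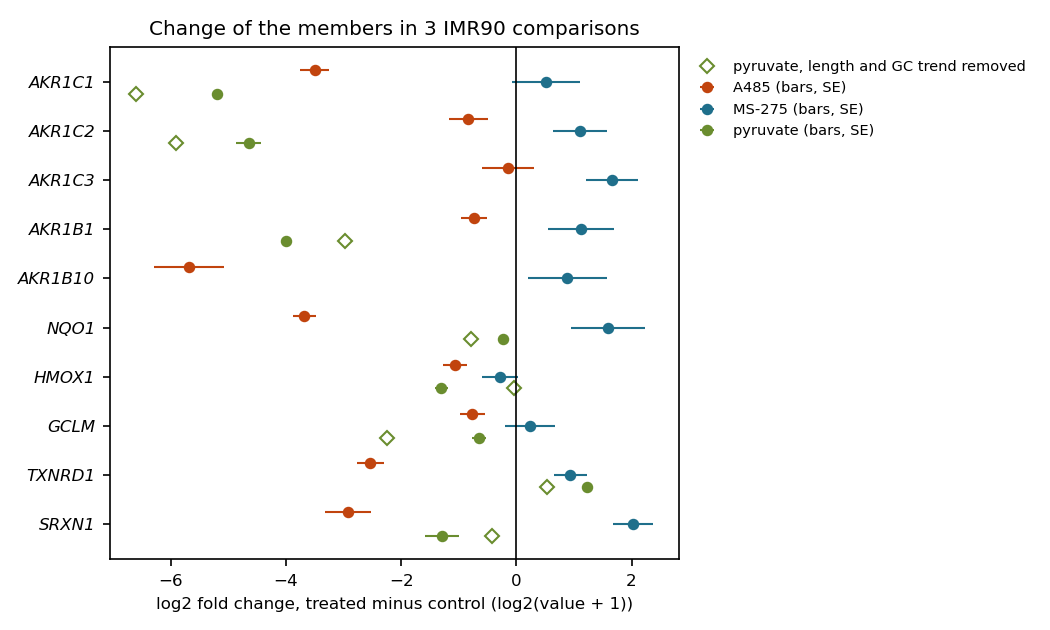
Log2 fold change of the 10 genes (treated minus control, x axis) with SE as bars, for A485, MS-275 and pyruvate, and for pyruvate also corrected for length and GC of the transcripts (open diamonds). A485 values lie between -5.68 and -0.15. All MS-275 values but HMOX1 lie above 0. For pyruvate, AKR1C1, AKR1C2 and AKR1B1 stay below -2.9 with or without the trend, and HMOX1 moves from -1.30 to -0.04.

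The rest of the pathway was described with a list of 81 other genes of NRF2 control, glutathione, thioredoxin, NADPH supply, iron and haem, detoxification, antioxidant enzymes and other AKR genes. The list was chosen by function but with earlier results of these data known, so its counts are not independent evidence. Of these, 70 were tested with A485, and 2 rose and 17 fell, beside 3.31% and 7.06% of all genes. The median log2 fold change of the list was -0.44. Of 14 genes of glutathione synthesis, conjugation and export 5 fell, of 8 thioredoxin genes 4, and of 6 genes that supply NADPH 4. Among 7 iron and haem genes FTH1, the ferritin heavy chain, fell, and none of 4 other AKR genes was called by limma at this threshold, with 1 at an unadjusted p under 0.05.

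SLC7A11, the cystine transporter that feeds glutathione synthesis (chromosome 4, 138164097 to 138242349), was 18151 and 12749 in controls and 105 and 266 with A485. It fell, with a change of -6.50 ± 0.45 on the log2 scale (adjusted p = 0.00184, limma). Its partner SLC3A2 fell by 2.34 on the log2 scale (adjusted p = 0.00382, limma), but not at that threshold without either A485 library, with adjusted p of 0.0757 and 0.0739. ABCC3, an exporter of conjugates (chromosome 17, 50634777 to 50692253), fell by 5.18 (adjusted p = 0.00239, limma).

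OSGIN1, an oxidative stress-induced growth inhibitor, fell by 3.44 (adjusted p = 0.00620, limma), and without either A485 library its adjusted p was 0.0931 and 0.0806. ALDH3A2, a fatty aldehyde dehydrogenase, rose by 1.27 ± 0.23 and GPX7, a glutathione peroxidase of the endoplasmic reticulum, by 1.23 ± 0.29, with adjusted p of 0.0237 and 0.0448 (limma). Neither was called when any 1 of the 4 libraries was left out, and their adjusted p then ranged from 0.0789 to 0.243. The regulators NFE2L2 (-0.42 ± 0.20), KEAP1 (-0.12 ± 0.16) and BACH1 (-0.41 ± 0.41) were not called, with adjusted p of 0.215, 0.645 and 0.549 (limma). KEAP1 was at 0.27 with equal library totals, and BACH1 at 0.24 without the second Control2 library.

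With MS-275, 9 of the 10 genes had a log2 fold change above 0, with a median of 1.02 beside -0.0084 for all genes. None was called in the fit without replicate number. In that fit limma also called none of the 15883 genes tested (0.00%). An unadjusted p under 0.05 was found for 1730 of all genes, and no other tool was run. The 2 control libraries differed from each other in many of the 10 genes. The second held 2.58 times the NQO1, 2.66 times the AKR1C1, 2.21 times the AKR1B1 and 3.06 times the AKR1B10 of the first. Changes were therefore also taken within replicate number. These numbers are names in the labels, and nothing states that they mark a shared batch. Over all genes tested, however, same-numbered libraries deviated together, with a correlation of 0.73.

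SRXN1 had the largest change of the 10 genes, at 148 and 187 in controls and 647 and 719 with MS-275. Its log2 fold change was 2.03 ± 0.35, and 2.12 and 1.94 within replicate numbers. NQO1 was 10577 and 27330 in controls and 34234 and 77149 with MS-275, for 1.60 ± 0.64, and 1.69 and 1.497 within numbers. The first treated library of NQO1 stood only a little above the second control, although each was about 3-fold above the control of its own number, with ratios of 3.24 and 2.82.

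TXNRD1 was 40545 and 38913 in controls and 82981 and 69714 with MS-275, for 0.94 ± 0.29. Its controls lay close together and both treated libraries were higher. GCLM was 2148 and 1670 in controls and 3054 and 1622 with MS-275, with overlapping groups and a log2 fold change of 0.23 ± 0.43. Without the first MS-275 library GCLM was at -0.22. HMOX1 was 2315 and 2831 in controls and 2267 and 1959 with MS-275, the one gene below 0, at -0.28 ± 0.31.

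In the AKR1C group, AKR1C3 was 73.3 and 101 in controls and 212 and 354 with MS-275, for a log2 fold change of 1.66 ± 0.45. AKR1C2 was 247 and 489 in controls and 652 and 863 with MS-275 (1.11 ± 0.46). AKR1C1 was 1198 and 3193 in controls and 2194 and 3573 with MS-275 (0.52 ± 0.59), with overlapping groups, and without the first Control3 library it was at -0.19. AKR1C1 was lower relative to both NQO1 and AKR1C2 in the treated libraries, with 6.41 and 4.63 per 100 NQO1 after MS-275 and 77.1% and 80.5% of the AKR1C1 and AKR1C2 sum, from 82.9% and 86.7% in the controls.

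AKR1B1 was 6386 and 14089 in controls and 14334 and 29607 with MS-275, for 1.12 ± 0.57, and 1.17 and 1.07 within numbers. AKR1B10 was 30.7 and 94.0 in controls and 78.4 and 129 with MS-275, for 0.89 ± 0.68 with overlapping groups. Over the 10 genes, both treated libraries lay above both controls in 6 and below in 1, as for 19.5% and 19.3% of all genes. AKR1C3, AKR1B1, NQO1 and SRXN1 had changes above 1 within both numbers, as for 6.81% of all genes. Beside these changes, summed fibroblast markers were 1255593 and 769700 in the controls and 1119843 and 632088 with MS-275, and were thus lower in replicate 2 of both groups.

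**Figure D3:**
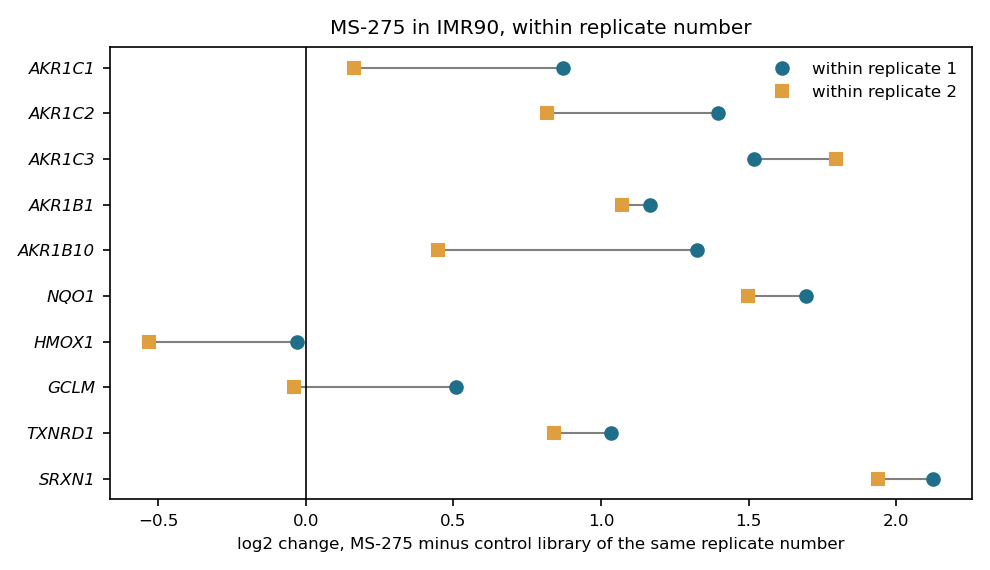
Log2 change from the control library to the MS-275 library of the same replicate number (x axis) for the 10 genes, circles replicate 1 and squares replicate 2. AKR1C3, AKR1B1, NQO1 and SRXN1 lie above 1 in both numbers, HMOX1 below 0 in both, and AKR1C1 and AKR1B10 are furthest apart between the numbers.

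Of the 81 other pathway genes, 70 were tested with MS-275 in IMR90 and none was called by limma, with 13 at an unadjusted p under 0.05. The list had a median log2 fold change of 0.27. All 6 NADPH supply genes were above 0, with a median of 0.64. The genes with the smallest p were SLC40A1, the iron exporter ferroportin (1.93 ± 0.31, adjusted p = 0.186), SLC48A1, a haem transporter (1.79 ± 0.37, adjusted p = 0.243), TXN, thioredoxin (2.13 ± 0.46, adjusted p = 0.251), ABCC3 (1.47 ± 0.33, adjusted p = 0.266) and SOD3, extracellular superoxide dismutase (1.58 ± 0.37, adjusted p = 0.274), all by limma. TXN passed without the second Control3 library, at 2.61 on the log2 scale (adjusted p = 0.0140, limma). NFE2L2 was at 0.39 ± 0.69 and BACH1 at 0.34 ± 0.66 (adjusted p = 0.954 and 0.960, limma), and both turned below 0 when 1 of 2 libraries was left out. KEAP1 was at -1.03 ± 0.36 (adjusted p = 0.421, limma).

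After pyruvate, 8 of the 10 genes were measured, and AKR1C3 and AKR1B10 were not listed in the values used here. AKR1C1, AKR1C2 and AKR1B1 were lower by a factor of 16.1 to 36.7, HMOX1, SRXN1, GCLM and NQO1 by a factor of 1.18 to 2.48, and TXNRD1 was higher by a factor of 2.34. The call rule took 6 of the 8, 1 higher and 5 lower, where it also took 54.1% of all 12013 genes, 31.0% higher and 23.1% lower. Both treated libraries lay below both controls in 7 genes and above in 1, as for 45.3% and 45.2% of all genes. The median of the 8 genes was -1.30, beside -0.0069 for all genes.

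AKR1C1 was 9970 and 11069 in the Control6 libraries and 293 and 281 with pyruvate, for a log2 fold change of -5.19 ± 0.09. AKR1C2 was 1268 and 1285 in controls and 62.9 and 39.7 with pyruvate (-4.65 ± 0.22). AKR1B1 was 56638 and 59962 in controls and 3766 and 3483 with pyruvate (-4.01 ± 0.06). All 3 reductases had replicates close together and groups far apart. Unlike with A485, AKR1C1 and AKR1C2 changed by similar factors, 36.7 and 24.9, and AKR1C1 took 88.7% and 89.6% of their sum in controls and 82.3% and 87.6% with pyruvate.

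NQO1 was 7083 and 7839 in controls and 6401 and 6237 with pyruvate, for -0.24 ± 0.07. That small difference was at 0.07 with equal library totals and 0.11 with quantile normalization. AKR1C1 thus went from 141 to 4.58 and 4.502 per 100 NQO1. HMOX1 was 1207 and 1369 in controls and 513 and 527 with pyruvate (-1.30 ± 0.11), and GCLM was 648 and 706 in controls and 436 and 427 with pyruvate (-0.65 ± 0.12).

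TXNRD1 was 8532 and 8204 in controls and 19647 and 19583 with pyruvate, for 1.23 ± 0.05, the one gene of the 8 that was higher. SRXN1 was 121 and 142 in controls and 48.2 and 58.2 with pyruvate (-1.29 ± 0.29). Leaving out any 1 of the 4 libraries left 6 genes called.

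Changes in the pyruvate comparison followed the GC content of the transcripts. Across 11888 genes, which share the same 4 libraries, Spearman's rho between log2 fold change and GC content was -0.71, against -0.11 with A485 and -0.02 with MS-275. The median log2 fold change went from 1.71 in the lowest to -1.19 in the highest of 10 equal bins of GC content. AKR1C1 (42.2% GC), AKR1C2 (41.1%) and AKR1B1 (53.0%) were each the lowest gene of their own bin, where the medians were 1.499, 1.87 and -0.68. After removal of a smooth trend on length and GC, AKR1C1 was at -6.61, AKR1C2 at -5.91 and AKR1B1 at -2.97.

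Of the other 5 genes, 4 moved across the call limits with the same correction. HMOX1 was then at -0.04, SRXN1 at -0.43 and TXNRD1 at 0.53, none of them called, and GCLM at -2.25 and called. NQO1 was at -0.79 and was called in neither fit. The count of genes called was 4 of 8 with the trend removed. With equal library totals it was also 4, then AKR1C1, AKR1C2, AKR1B1 and TXNRD1.

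**Figure D4:**
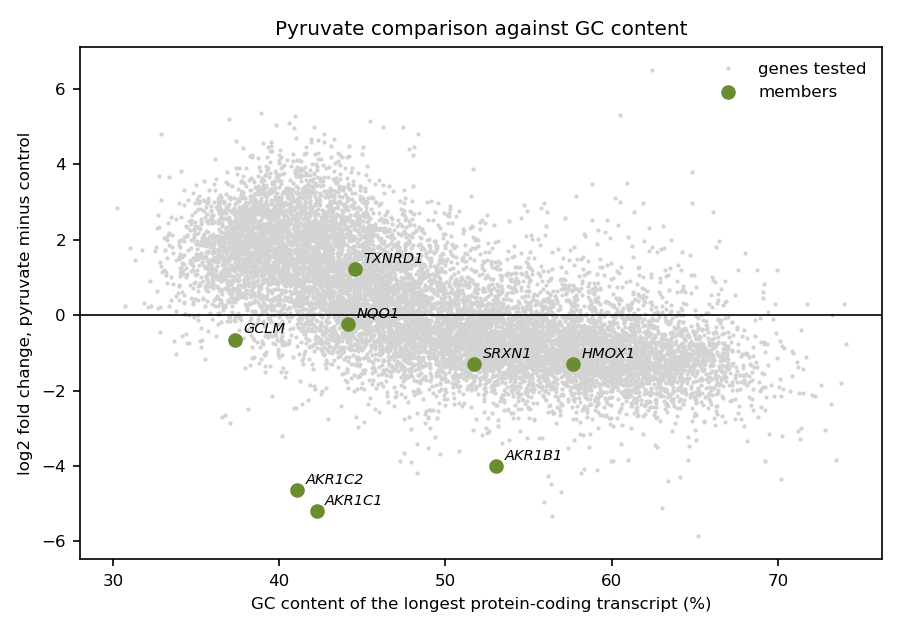
Log2 fold change after pyruvate (y axis) against GC content of the longest protein-coding transcript in percent (x axis) for the genes tested (grey) and 8 of the 10 genes (green, named). The grey cloud falls from left to right. AKR1C1, AKR1C2 and AKR1B1 lie below it at -5.19, -4.65 and -4.01, and TXNRD1, HMOX1 and SRXN1 lie inside it.

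In the list of other pathway genes, 67 were tested with pyruvate, and 15 rose and 24 fell, in all 39, beside 54.1% of all genes. With the length and GC trend removed, 9 rose and 10 fell, beside 20.9% and 10.01% of all genes in that fit. The largest rises were GPX8, a peroxidase of the endoplasmic reticulum (2.42), ESD, S-formylglutathione hydrolase (2.41), BACH1 (2.37), CUL3 (2.35) and GCLC, the catalytic partner of GCLM (2.17). With the trend removed, GCLC was at 1.41 and ESD at 1.10 and both were called, but GPX8 (0.98), BACH1 (0.66) and CUL3 (0.64) were not.

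The largest falls were GPX3, a secreted glutathione peroxidase (-3.25), EPHX1, epoxide hydrolase (-2.54), SOD3 (-2.37), SLC48A1 (-2.22) and FTH1 (-1.96). Adjusted p for these 10 genes was at most 2.34e-07 (limma). With the trend removed SOD3 was at -0.71 and no longer called, and the other 4 falls were between -2.07 and -1.06. NFE2L2 rose by 1.33 ± 0.12 (adjusted p = 1.15e-06, limma) and was at -0.24 with the trend removed. KEAP1 was at -0.86 ± 0.08 (adjusted p = 1.46e-06, limma), short of the size limit, and at 0.47 with the trend removed.

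**Figure D5:**
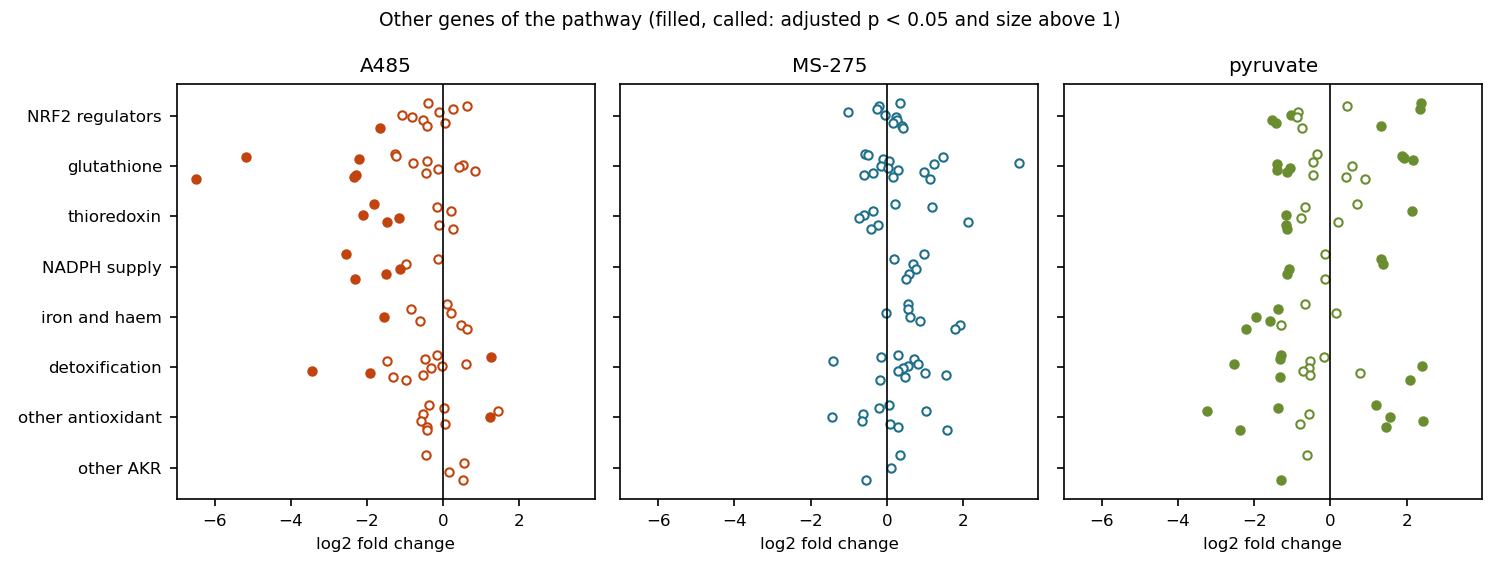
Log2 fold change (x axis) of the other pathway genes by group (y axis) for A485, MS-275 and pyruvate, 1 point per gene, filled when called. With A485 the filled points are almost all below 0 and SLC7A11 and ABCC3 lie furthest out. With MS-275 no point is filled, in the fit without replicate number, and with pyruvate filled points lie on both sides.

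The genes whose pattern was most like that of AKR1C1 were sought over the 12 IMR90 libraries, with each experiment centred on its own mean. The search covered 9768 genes with a mean of at least 100 in every experiment, and AKR1C3, AKR1B10 and SRXN1 were not among them. The 5 with the highest Pearson correlation were PITPNM3 (0.992), RXRA (0.981), TYRO3 (0.980), PKM (0.980) and MYL9 (0.977). Of the 10 genes themselves, HMOX1 (0.942) ranked 60th, AKR1C2 (0.905) 195th and AKR1B1 (0.895) 247th, whereas GCLM (0.671), NQO1 (0.609) and TXNRD1 (0.144) were further down. All these correlations share the same libraries, and they are given with no p. The values were not corrected for the GC trend of the pyruvate comparison, in which the 5 genes were at -2.63 to -1.13. The part of that trend in the correlations was not tested. PITPNM3, the most alike, had log2 fold changes of -2.03, 0.40 and -2.63 with A485, MS-275 and pyruvate in that order.

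In mouse muscle, which had no part in the choice of the genes, 3 of 19 mouse symbols of these families were measured. They were Akr1b10 (mm10 chromosome 6, 34384218 to 34396950), Akr1b7 (chromosome 6, 34412334 to 34423142) and Txnrd1 (chromosome 10, 82833951 to 82897712). In female mice given MS-275, Akr1b10 was 28.5 and 21.9 in controls and 199 and 160 with MS-275. It rose by 2.78 ± 0.36 on the log2 scale (adjusted p = 0.00994, limma), and 16.2% of the 9494 genes tested were called, 9.24% higher. Without either MS-275 library its adjusted p was 0.0978 and 0.0523, at log2 fold changes of 2.63 and 2.94.

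Akr1b7 was 288 and 303 in controls and 117 and 201 with MS-275 (-0.94 ± 0.33, adjusted p = 0.100, limma), and Txnrd1 84.3 and 61.6 in controls and 48.2 and 71.7 with MS-275 (-0.29 ± 0.39, adjusted p = 0.639, limma). Neither passed, and with equal library totals, which put the median of all genes at 0.95, they were at 0.01 and 0.65. Mitochondrial genes took 39.0% and 30.8% of the reads in the controls and 22.0% and 21.9% with MS-275. The part of this difference in the muscle changes was not tested. In bulk muscle, fewer cells of a type and less RNA per cell cannot be told apart. Beside these values, 2 of 6 fibroblast markers (Col1a2 and Col3a1) were measured, and their sum was 2692 and 5533 in controls and 26591 and 51475 with MS-275. The sum of 3 of 8 macrophage markers was 70.0 and 73.9 in controls and 428 and 137 with MS-275. Of 6 muscle fibre markers Ckm, Myh4 and Myh1 were measured, with a sum of 615 to 1502 per library. That sum was about as high as Pax7, a satellite cell gene, alone, at 826 to 1151 per library. Acta1, Tnnt3 and Tnni2 were not listed, so the muscle values lack some main fibre genes, for a reason not tested here. The part of fibroblasts, macrophages and fibres in the rise of Akr1b10 was not tested.

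After NALA, Akr1b10 was 67.7 and 36.0 in Control5 and 23.2 and 17.8 in the treated muscle. It fell by 1.24 ± 0.37 on the log2 scale (adjusted p = 0.0186, limma), where 3.35% of 8895 genes were called, 1.79% lower. This call was lost with a pseudocount of 10, where the log2 fold change was -0.98, with DESeq2 on recovered reads (adjusted p = 0.0803), without the first Control5 library (-0.79, adjusted p = 0.328, limma) and without the second NALA library (adjusted p = 0.0958, limma). Akr1b7 was 310 and 244 in controls and 213 and 197 with NALA (-0.42 ± 0.14, adjusted p = 0.0320, limma), short of the size limit. Txnrd1 was at 0.15 ± 0.23 (adjusted p = 0.741, limma). The fibroblast marker sum was 11780 and 11201 in controls and 6119 and 6089 with NALA and the macrophage sum 242 and 296 against 160 and 156, and their part in the result was not tested.

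Of the other pathway genes, 32 were tested with MS-275 in muscle, and Ptgr1 rose while Abcc3, Maff and Cul3 fell, beside 9.24% and 6.97% of all genes. Ptgr1, a prostaglandin and aldehyde reductase, rose by 2.78 ± 0.63 (adjusted p = 0.0350, limma), and Abcc3 fell by 2.59 ± 0.45 (adjusted p = 0.0186, limma). Abcc3 was not called when any 1 of the 4 libraries was left out (adjusted p = 0.0537 to 0.105, limma). Ptgr1 was not called by edgeR (adjusted p = 0.0506). When 1 library was left out, Ptgr1 stayed called only without the second Control4 library, and it was at 1.75 without the first. Maff, a small MAF protein, fell by 1.31 ± 0.30 and Cul3 by 1.28 ± 0.28 (adjusted p = 0.0367 and 0.0307, limma), but both were at -0.36 and -0.32 and not called with equal library totals. The count of 4 was 0 without the first Control4 library or the first MS-275 library, 1, Ptgr1, without the second Control4 library and 3 without the second MS-275 library, of which only Cul3 was among the 4. With NALA, 1 of 30 tested genes was called, Gpx4, the lipid hydroperoxide peroxidase, which fell by 1.36 ± 0.06 (adjusted p = 1.71e-17, limma).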

How the data were processed

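Total RNA was sequenced from IMR90 cells and mouse muscle, in 20 libraries. Per the labels and the study's methods, the authors trimmed reads with Trim Galore 0.6.10, aligned them with HISAT2 2.2.1 to hg38 or mm10, handled alignments with SAMtools 1.7, counted genes with featureCounts 2.0.6 and normalised with DESeq2 1.34.0. The deposited values are a signal, reads divided by a size factor, 1 file per library. The annotation and strand setting are not given in the sources used here.

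The value of 1 read was recovered from the low values, and all values were whole reads within 0.01. For MS-275 and pyruvate in IMR90 a second check did not accept this recovery, so no count test was run there and the reads behind their AKR1C1 shares are less certain. Each comparison was fitted alone with limma 3.58.1 (R 4.3.3) on log2(value + 1), for genes with a mean of at least 10, with Benjamini-Hochberg adjustment. edgeR 4.0.16 and DESeq2 1.42.0 were run on recovered reads for A485 and muscle. Alternatives were a pseudocount of 10, no filter on low values, equal totals, quantile and median-of-ratios scaling, a replicate block, removal of a length and GC trend, and leaving out each library. Fits were tested on simulated data. Positions came from GENCODE 44 and, for mouse, GENCODE vM21.

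The 10 genes and the lists were chosen with earlier results of these data known. Genes named beyond the 10 were the regulators NFE2L2, KEAP1 and BACH1 and the called pathway genes with the largest changes (MS-275 in IMR90: smallest p). Reads ranged from 24179065 to 46971227 in IMR90 and from 10836858 to 14190054 in muscle, and intervals cover counting error only. One gene that this rule names is not reported here.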

Additional observations from a re-analysis of the deposited data

Results flagged for a closer look

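MS-275 was given to both IMR90 cells and mouse muscle, and 4 pathway genes lay on opposite sides of their controls in the 2 systems, without overlap of groups in either. They were 4 of 31 listed genes tested in both (12.9%), where 604 of all 5112 genes tested in both and matched by symbol (11.8%) did the same, so the share was near that of all genes. The difference between the systems was not tested, and species, tissue and treatment differ together.

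ABCC3, an exporter of conjugates, was 541 and 707 in IMR90 controls and 1635 and 1793 with MS-275, a log2 fold change of 1.47. Abcc3 in muscle was 113 and 173 in controls and 16.7 and 29.9 with MS-275, at -2.59. PRDX1, a peroxiredoxin, was at 1.19 in IMR90 and Prdx1 at -0.72 in muscle. PGD, an NADPH-supplying enzyme, was at 0.77 in IMR90 and Pgd at -1.31 in muscle. PRDX6, another peroxiredoxin, went the other way, at -0.59 in IMR90 and Prdx6 at 0.91 in muscle. With equal library totals in muscle Prdx1 was at 0.22, on the same side as in IMR90, and Abcc3 was at -1.66, Pgd at -0.35 and Prdx6 at 1.85.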

How the results depend on the processing

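Under the alternatives, 783 changes of single genes were labelled the same, 46 moved and 12 reversed, and 43 lost and 13 gained a call. In IMR90 these labels did not mark every change of direction or call of the genes described here. AKR1C3 with A485 went from -0.15 to 0.24 with equal totals. AKR1C1 with MS-275 went from 0.52 to -0.19 without the first Control3 library. AKR1B1, AKR1C2, AKR1C3, NQO1 and SRXN1 with MS-275 were called with a replicate block but not in the main fit. Of the counts, 171 stayed within 1.5 times and 45 moved. The cause was not tested.

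With equal library totals, the A485 calls went from 1667 to 2584 (532 higher and 1135 lower to 1669 and 915; quantile 746 and 1007), the pyruvate split from 3726 and 2777 to 4402 and 1741 (quantile 3139 and 3231), muscle MS-275 from 1539 to 2974 (877 and 662 to 2790 and 184) with 9 pathway genes, and NALA from 139 and 159 to 250 and 100 with 2 pathway genes. All-gene medians were then 0.40 (A485), -0.15 (MS-275 in IMR90), 0.30 (pyruvate), 0.95 (muscle MS-275) and 0.20 (NALA). NALA calls were 590 at a fold change minimum of 0.58, and the count of mouse orthologues called with NALA was 0 with a pseudocount of 10 or with DESeq2.

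Same-numbered libraries of the MS-275 experiment in IMR90 deviated together, with a correlation of 0.73 over 15883 genes. The value was 0.32 for A485, 0.00 for pyruvate, -0.11 for muscle MS-275 and -0.01 for NALA, over 2 pairs each. With MS-275 in IMR90, libraries of 1 number thus shared much of their deviation, which the main fit did not allow for. Whether a shared batch was behind this was not tested. With pyruvate and in muscle the numbers are not shown to pair the libraries, and the A485 value lay in between. With a replicate block MS-275 in IMR90 had 2183 calls in all genes, 14 in the pathway list and 5 among the 10 genes (AKR1B1, AKR1C2, AKR1C3, NQO1 and SRXN1), and 1990, 14 and 5 with the GC trend removed too. Under the block NALA had 2 pathway genes called. A crossed pairing, added after the data were seen, gave 1730 calls for muscle MS-275 against 1556 with the block. Removing the length and GC trend gave pyruvate 3676 calls (3696 with the block) and 19 in the list with or without the block.

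Leaving out 1 library gave 117 to 844 calls for A485, with 5 to 15 in the list and 2 to 4 among the 10 genes. It gave 0 to 419 for MS-275 in IMR90 with 0 to 1 in the list, 0 to 873 for muscle MS-275 with 0 to 3 in the list, 1 to 2 in the NALA list, and 0 to 1 orthologues in either muscle comparison. A lone library was assumed to vary like the others.

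Some log2 fold changes reversed. KEAP1 with A485 was 0.27 with equal totals. BACH1 with A485 was -1.05 to 0.24 without 1 library. NFE2L2 with MS-275 in IMR90 was -0.37 to 1.15 without 1 library, and -0.23 without the second Control3 library. BACH1 with MS-275 in IMR90 was -0.31 to 0.995. NFE2L2 with pyruvate was -0.24 and KEAP1 0.47 with the GC trend removed. Akr1b7 and Txnrd1 in muscle with MS-275 were 0.0144 and 0.65 with equal totals. The IMR90 comparisons with MS-275 and pyruvate had no count test.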

Other observations

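In the MS-275 experiment in IMR90, some pathway genes differed more between replicate numbers than between treatments. These genes were chosen after their values were seen. SLC7A11 was 10017 and 2608 in controls and 26872 and 4624 with MS-275. NFE2L2 was 6788 and 2869 in controls and 9786 and 3420 with MS-275. Both genes were lower in replicate 2 of each group, whereas NQO1 and AKR1B1 were higher in replicate 2 of each group.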
